A study of Mus musculus with 25 samples.

Results

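The 9 genes Sall1, Maf, Irf8, Spi1, Mef2a, Mef2c, Runx1, Cebpb and Mitf encode transcription factors that set or maintain the identity of microglia, macrophages and related myeloid cells. They were taken by name from the 22439 genes in the deposited count tables, and all 9 were found there. Microglia, the resident macrophages of the central nervous system, depend on PU.1 (the product of Spi1) and IRF8, which act in most myeloid lineages, while SALL1, the MEF2 factors and MAF are known for holding the gene program of the undisturbed microglial cell. C/EBP beta, encoded by Cebpb, is known from inflammatory monocytes and macrophages and from granulocyte production, RUNX1 from blood cell development, and MITF from lysosome-rich cells such as osteoclasts and pigment cells.

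Fluorescent myeloid cells were collected from injured mouse spinal cord, and from cord after laminectomy alone (Ctrl), which opens the bone and leaves the cord intact. Droplet-based 3' single-cell RNA-seq counted unique molecular identifiers (UMIs), a count of captured RNA molecules, in 30958 cells of 25 libraries, each pooled from 1 to 3 mice. The time points were Ctrl (2 libraries) and day 1 (D1, 5), 2 (D2, 4), 3 (D3, 7), 10 (D10, 5) and 21 (D21, 2) after injury. Mice of the strain Cx3cr1CreERT2 gave 12 libraries of all YFP+ cells, called mixed. Mice of the strain Cx3cr1CreERT2:R26tdTomato, in which an inducible Cre at the Cx3cr1 locus turns on a red reporter (RFP), gave 5 libraries of RFP+/YFP+ cells, called resident, and 7 of RFP-/YFP+ cells, called infiltrating. Strain and sort are therefore split the same way, and every mouse carried the Cre allele. One more D3 library, D3_conflict 1, carries a title of infiltrating cells and a sort label of double-positive cells, and it entered no main comparison. The labels give no age of the mice.

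Each cell carries a deposited code for its type, with no name. By marker genes, code 1 (13289 cells) was microglia, with 9 of 9 microglia markers enriched, among them P2ry12, Tmem119 and Siglech. Code 2 (12841 cells) had 7 of 9 macrophage and 5 of 8 monocyte markers and is called macrophages here, monocytes included. For the 2712 cells of code 3, 6 of 8 markers of dendritic cells passed, so they are termed dendritic-like, and for the 2116 cells of code 4, 7 of 7 neutrophil markers did, so they are termed neutrophil-like. Levels are UMIs per 1e6 (CPM) of the summed cells of a type in a library. They are not corrected for length, so they were compared between cells and not between genes, and a lower CPM does not separate a lower level in each cell from fewer cells with the RNA. Libraries held 155 to 3800 cells and 486649 to 33204422 UMIs. No label says that libraries of a group came from separate experiments, so p-values measure the spread between these libraries. Across libraries, 127 cell barcodes occurred more than once (254 cells).

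The genes lie on 6 chromosomes of GRCm38 and overlap other genes in several cases. Sall1 is at chr8:89027235-89044162, Maf at chr8:115682942-115707794, Irf8 at chr8:120736358-120756694 and Spi1 at chr2:91082390-91115756. Mef2a is at chr7:67231163-67372858, Mef2c at chr13:83504034-83667080, Runx1 at chr16:92601466-92826149, Cebpb at chr2:167688915-167690418 and Mitf at chr6:97807052-98021349. Irf8 overlaps Gm20388 on the same strand, and Mef2a the unconfirmed models Gm44667 and Gm44668, so some of their reads could be split. Cebpb overlaps Tmem189, Maf Gm15655, Runx1 Gm26626, Mitf Gm15531 and Mef2a Lysmd4 on the opposite strand, and whether the counting used strand is not given in the sources used here.

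RefSeq start-site windows were at hand for 7 of the 9 genes (all but Maf and Spi1). The 250 bases before the outermost start are printed for 4 genes whose levels moved in different ways below. Runx1 and Mef2c fell in microglia after injury, the difference of Mitf between macrophages and microglia changed from the early to the late libraries, and Cebpb was highest in neutrophil-like cells and in macrophages of the first days. Capitals mark matches, on either strand, to fixed letters for families of these factors, with none for SALL1, and for STAT and CREB factors. The windows are on GRCm38.p6, at chr16:92826075-92826324 (minus strand) for Runx1, chr6:97806808-97807057 (plus) for Mitf, chr13:83503784-83504033 (plus) for Mef2c and chr2:167688665-167688914 (plus) for Cebpb.
Runx1: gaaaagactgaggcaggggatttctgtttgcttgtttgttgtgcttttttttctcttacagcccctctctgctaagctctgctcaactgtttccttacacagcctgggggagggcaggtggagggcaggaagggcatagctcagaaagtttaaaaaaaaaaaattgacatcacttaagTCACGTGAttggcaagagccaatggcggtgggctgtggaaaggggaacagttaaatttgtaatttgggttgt
Mitf: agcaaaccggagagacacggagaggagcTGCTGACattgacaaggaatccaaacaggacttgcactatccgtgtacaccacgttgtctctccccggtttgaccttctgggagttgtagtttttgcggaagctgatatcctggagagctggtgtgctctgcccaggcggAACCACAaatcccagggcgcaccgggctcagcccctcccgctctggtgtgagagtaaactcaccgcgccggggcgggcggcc
Mef2c: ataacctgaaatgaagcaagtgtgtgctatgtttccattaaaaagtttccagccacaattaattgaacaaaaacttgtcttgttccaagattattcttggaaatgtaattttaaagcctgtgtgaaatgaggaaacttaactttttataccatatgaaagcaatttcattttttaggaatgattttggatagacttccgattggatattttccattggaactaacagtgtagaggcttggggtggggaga
Cebpb: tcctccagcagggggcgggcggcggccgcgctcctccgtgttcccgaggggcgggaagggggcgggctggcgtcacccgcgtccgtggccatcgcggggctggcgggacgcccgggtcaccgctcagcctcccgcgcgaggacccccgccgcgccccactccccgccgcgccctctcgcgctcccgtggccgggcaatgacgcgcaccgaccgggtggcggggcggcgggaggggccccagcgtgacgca
A pair of matches lies just after the Runx1 start, at chr16:92826029-92826052 (minus strand).
Runx1, after the start: taaacAACCACAgAACCACAagtt

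The Runx1 window holds the E-box letters TCACGTG of MITF and its relatives, read on both strands, 72 bases before the start, and the RUNX letters TGTGGTT on the reverse strand at positions 28 and 36 after it. Of all 32851 windows of 300 bases (250 before and 50 after a start), 3.77% hold these E-box letters and 5.27% these RUNX letters. The printed Mitf window, the outermost of its 3, holds the RUNX letters 82 bases before the start and the MAF letters TGCTGAC 222 bases before it, and 4.67% of all windows hold the latter. Of its other windows, 1 holds the MAF letters 236 bases before its own start and 1 the CREB letters TGACGTCA 153 bases before. Neither the Mef2c nor the Cebpb window holds any of the 9 letter strings searched. The others were GAGGAAGT for PU.1 (in 3.20% of windows), TTGCGCAA for C/EBP (0.183%), the MEF2 element (0.164%), an ETS-IRF pair (2.72%), TTCCNGGAA for STAT (1.15%) and TGACGTCA for CREB (1.79%). In base composition they stand at opposite ends, with 33.6% G and C in the printed Mef2c stretch and 81.6% in that of Cebpb, against a median of 52.7% over all windows. A match of letters is a description of the sequence and not a site shown to be bound.

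In microglia, 7 of the 9 genes were lower at D1 than in the controls and none was higher by the test (edgeR quasi-likelihood test, adjusted over 10801 genes, 17 libraries). The background was large: 46.6% of all genes tested passed, 23.9% as higher and 22.7% as lower. The 7 were Sall1, Maf, Mef2a, Mef2c, Runx1, Irf8 and Mitf, and the median log2 change of the 9 was -1.65, against -0.01 for all genes. Spi1 and Cebpb did not pass. The 2 controls differ in sex, sort and sequencing pool: Ctrl_mixed 1 is female and in pool 2, and Ctrl_resident 1 is male and in pool 7. All 3 D1 libraries are male and of the mixed sort. Leaving out 1 control therefore also leaves controls of 1 sex, sort and pool, and these cannot be told apart. Irf8 and Mitf were the calls that depended on single libraries. Without Ctrl_mixed 1, Ctrl_resident 1, D1_mixed 1 or D1_mixed 2 Irf8 was at -0.75 to -0.90 with an edgeR adjusted p of 0.0659 to 0.0923, and without Ctrl_resident 1 Mitf was at -1.09 (0.0642). In the mixed libraries alone, with 1 control, only Mef2a of the 7 passed, and the median change of all genes moved to 0.83.

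Sall1, a zinc-finger factor known as a marker and guardian of microglial identity, was at 218 CPM in the mixed and 158 CPM in the resident control library. At D1 it was at 18.6, 19.9 and 25.1 CPM, and at D2 at 25.6, 29.6 and 44.3 CPM. At D3 it lay between 13.5 and 39.7 CPM, at D10 at 39.0, 53.9 and 71.0 CPM, and at 34.6 CPM in the D21 library. No library after injury reached the lower control. The log2 change was -2.47 ± 0.38 (SE, edgeR adjusted p = 8.9e-05) on D1 and -2.08 ± 0.37 (0.00079) on D2. By D3 it was -2.23 ± 0.33 (0.000117), and by D10 -1.22 ± 0.35 (0.0342). At D21, with 1 library, it was -1.56 ± 0.51 and did not pass (edgeR adjusted p = 0.077).

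Mef2c and Mef2a, the MADS-box factors of the set, had the same early low point. Mef2c was at 1006 and 1027 CPM in the controls, at 160, 190 and 230 CPM at D1 and at 514, 582 and 591 CPM at D10. Its D1 change was -1.65 ± 0.36 (edgeR adjusted p = 0.00136), and its D10 change of -0.26 ± 0.34 did not pass (0.691). Mef2a was at 806 and 600 CPM in the controls and at 64.8, 48.4 and 56.2 CPM at D1, the largest D1 change of the 9, at -2.88 ± 0.43 (edgeR adjusted p = 7.4e-05). All post-injury libraries of both genes lay below both controls. At D2, 1 of the 3 Mef2a values stood apart, 311 CPM in D2_mixed 2, a sum of only 23 cells, against 115 and 194 CPM.

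Maf, a bZIP factor that restrains macrophage self-renewal, followed the same course. It was at 691 and 477 CPM in the controls, at 50.5, 37.6 and 46.9 CPM at D1 and at 220, 256 and 241 CPM at D10. The D1 change was -2.81 ± 0.46 (edgeR adjusted p = 0.000157), and at D10 the change of -0.63 ± 0.43 did not pass (0.407). The D3 libraries spread widely, from 39.2 CPM in D3_mixed 1 to 210 CPM in D3_resident 1. The mean at D3 was still lower than in the controls, by a log2 change of -1.50 ± 0.39 (edgeR adjusted p = 0.00695), and without Ctrl_mixed 1 by -1.33 (0.0751). With sequencing pool as a term that change was -0.29 (edgeR adjusted p = 0.85).

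**Figure D1:**
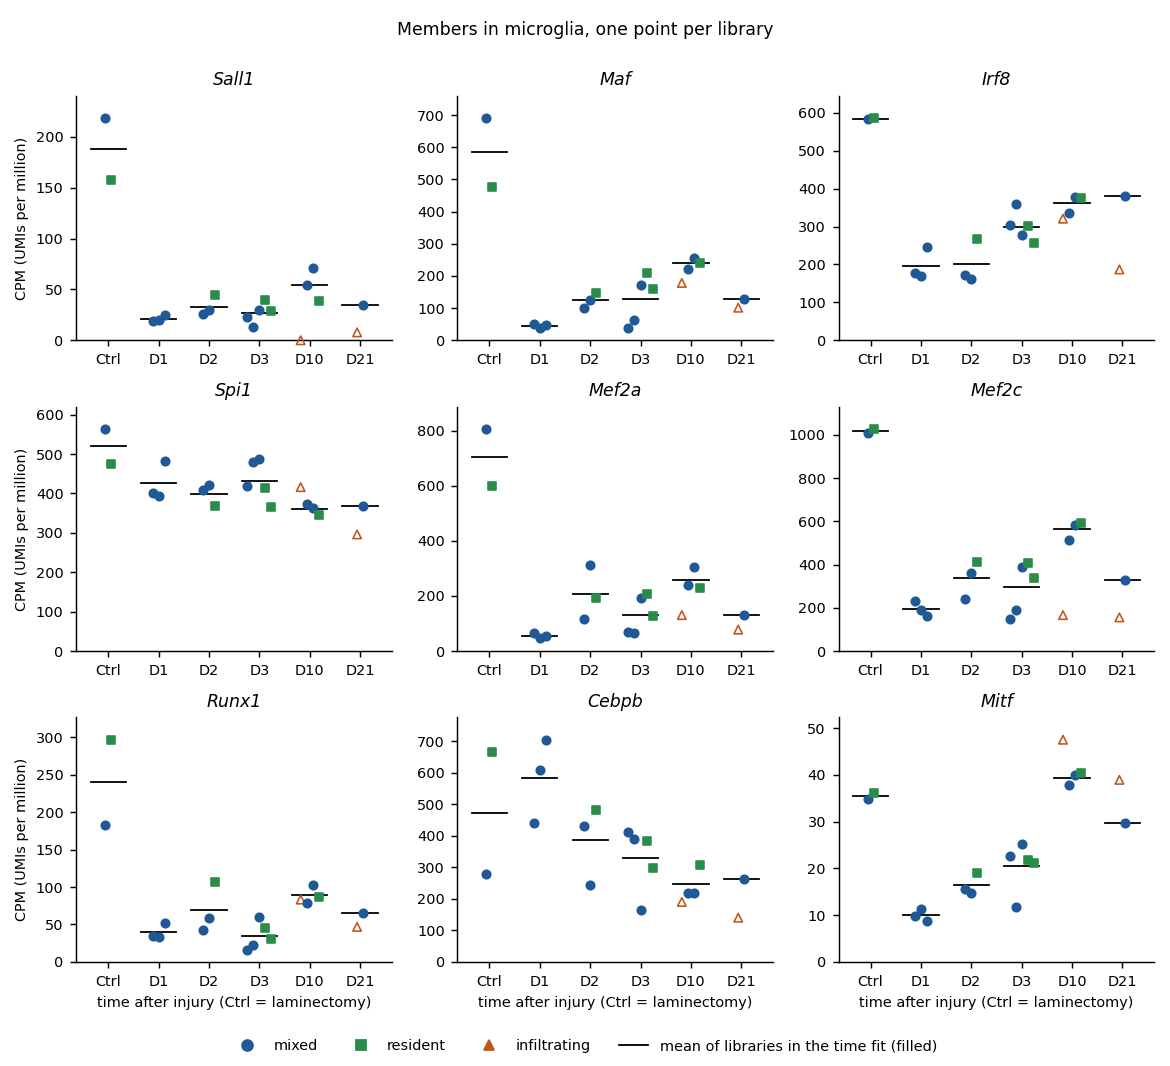
CPM of the 9 genes in microglia (y axis, linear, each panel on its own scale) by time point (x axis), with 1 point per library, shaped by sort; black lines are means over the libraries of the fit, and open symbols are libraries outside it. The controls stand above all later libraries for Sall1, Maf, Irf8, Mef2a, Mef2c and Runx1, while the Cebpb controls (277 and 666 CPM) span most later values.

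Runx1, a factor of blood cell development, was at 182 and 297 CPM in the controls and at 34.3, 32.8 and 51.8 CPM at D1. The log2 change was -1.99 ± 0.42 at D1 (edgeR adjusted p = 0.00105), -1.38 ± 0.41 at D2 (0.0196) and -2.22 ± 0.37 at D3 (0.000284). At D10 it stood at 78.6, 103 and 86.9 CPM, with a change of -0.85 ± 0.40 that did not pass (edgeR adjusted p = 0.201). All post-injury libraries were below both controls.

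Irf8, required for microglia and monocyte development, fell less. It was at 583 and 586 CPM in the controls, at 177, 168 and 245 CPM at D1 and at 173, 163 and 267 CPM at D2. The change was -0.87 ± 0.28 at D1 (edgeR adjusted p = 0.0162) and -1.15 ± 0.27 at D2 (0.00471). From D3 on it did not pass with TMM scaling, with 256 to 360 CPM at D3 and 337, 377 and 376 CPM at D10. Spi1, the ETS factor PU.1 at the head of the myeloid program, varied least: it lay between 345 and 564 CPM in all 17 libraries, and none of its 5 changes against the controls passed.

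Mitf, the lowest by UMIs, was at 34.8 and 36.1 CPM in the controls and at 9.84, 11.4 and 8.82 CPM at D1, a change of -1.12 ± 0.29 (edgeR adjusted p = 0.00497). By D10 it had 37.8, 39.9 and 40.4 CPM, slightly above both controls, with a change of 0.73 ± 0.27 that did not pass (edgeR adjusted p = 0.108). Cebpb was at 440, 608 and 705 CPM at D1, within or just above the control span of 277 to 666 CPM. Its D1 change of 1.07 ± 0.44 did not pass (edgeR adjusted p = 0.0548). It passed with a sort term (1.35, edgeR adjusted p = 0.0205) and with no filter on low counts (0.96, 0.0436). It was 2.15 (0.0121) without Ctrl_resident 1 and 0.56 (0.395) without Ctrl_mixed 1, and it passed at 1.05 to 1.28 (0.0303 to 0.0460) without any 1 of D1_mixed 1, D2_resident 1, D3_mixed 1 or D3_mixed 3.

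At D2 6 of the 9 genes were lower than in the controls (29.7% of all genes passed, 17.6% higher and 12.2% lower), and at D3 5 (37.6%, 20.1% higher and 17.6% lower). At D10 it was 1 (10.3%, 8.06% higher and 2.22% lower) and at D21 0 in edgeR (6.98%; 2278 genes had an unadjusted p under 0.05, and DESeq2 called 1 member). Mitf no longer passed at D2, Irf8 and Mitf did not at D3, and only Sall1 did at D10. Leaving out Ctrl_mixed 1 left 1 of the 6 calls at D2 (Sall1), leaving out D2_mixed 1 left 2 (Sall1 and Irf8), and leaving out Ctrl_resident 1 lost Mef2c (-1.19, edgeR adjusted p = 0.0944) and Runx1 (-1.13, 0.178). At D3 Mef2c was lost without Ctrl_resident 1 (-1.14, edgeR adjusted p = 0.0832). The D10 call of Sall1 was lost without any of Ctrl_mixed 1, Ctrl_resident 1, D10_mixed 1 or D10_resident 1 (-0.85 to -1.61, edgeR adjusted p from 0.0576 to 0.402). At D21 Sall1 passed without D3_mixed 2 (-1.58, 0.0418).

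**Figure D2:**
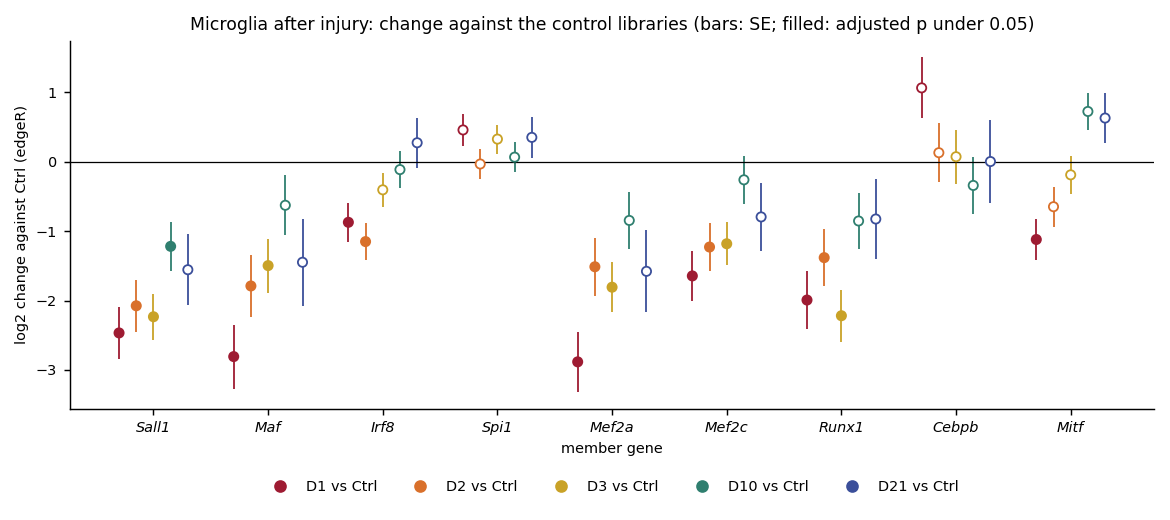
Log2 change of each gene in microglia against the controls (y axis) for the 5 time points after injury, from the edgeR fit, with bars of 1 SE; filled points passed an adjusted p of 0.05. The D1 points of Sall1, Maf, Mef2a and Runx1 lie near or below -2, and those of Spi1 stay between -0.03 and 0.46.

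The size of these changes depended on the scaling. TMM factors, which the fit applies and CPM does not, were 1.38 and 1.46 in the control libraries and 0.771 to 1.28 in the others. With library totals in their place the median change of all genes at D1 moved to -0.73, Sall1 was at -3.19 and Mef2c at -2.37, and the same 7 genes passed. At D2 Mitf was added (-1.04, edgeR adjusted p = 0.0118; -0.73, 0.0231 with DESeq2), and at D3 Irf8 (-0.99, 0.00222) and Mitf (-0.77, 0.0244). Spi1 changed sign, from 0.46 to -0.28 at D1, and did not pass either way (edgeR adjusted p = 0.115 and 0.299). At D10, 5 genes passed with library totals, namely Sall1, Maf, Irf8, Mef2a and Runx1, and at D21 4 did, namely Sall1, Maf, Mef2a and Mef2c, all lower.

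Sequencing pool and time overlapped only in part. All 3 D1 microglia libraries lay in a pool without a control, so pool and injury cannot be told apart at D1. The same holds at D21, whose only microglia library of the fit, D21_mixed 1, lay in that pool too. As 1 library, D21 is also assumed to vary like the other groups in every D21 result given above. Pool 2 held the mixed control with 2 D10 libraries, where Sall1 was at 218 CPM against 53.9 and 71.0, Mef2a at 806 against 240 and 305, and Mitf at 34.8 against 37.8 and 39.9. Pool 7 held the resident control with D2 and D10 libraries, where Sall1 was at 158 CPM against 44.3 and 39.0, and Mef2c at 1027 against 413 and 591. Within both pools every gene but Mitf had a lower CPM in each later library than in the control of its pool. CPM leaves out the TMM factors, and with library totals the median change of all genes was -0.40 at D2 and -0.60 at D10. The log2 differences within these pools were -0.37 to -0.63 for Spi1 and -0.35 to -1.11 for Cebpb. With pool as a term in the fit, none of the 5 D3 calls against the controls passed. Sall1 was at -1.14 (edgeR adjusted p = 0.389), Mef2a at -1.12 (0.371), Runx1 at -0.79 (0.593), Mef2c at -0.31 (0.819) and Maf at -0.29 (0.85). The D2 calls of Irf8 (-0.67, edgeR adjusted p = 0.153) and Runx1 (-1.03, 0.0612) were also lost, while 5 genes passed at D10 (Sall1, Maf, Mef2a and Runx1 lower, Mitf higher at 0.74).

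Other measures moved with these genes. The summed CPM of the 9 microglia markers ran from 28062 to 29997 in the controls and from 4769 to 9088 at D1. That of the 8 monocyte markers ran from 8.58 to 22.7 in the controls and from 195 to 480 at D1, and that of the 9 macrophage markers from 18.9 to 45.9 and from 1239 to 2348, with no marker of either list at 0 at D1. Msr1, a macrophage marker whose levels are given further below, made up a large part of the macrophage sum at D1. The neutrophil list was at 38.1 to 103 CPM at D1 (2 of 7 at 0) and at 199 to 219 CPM in the controls (3 of 7 at 0), where Csf3r alone, at 201 ± 14.3 CPM (SD, n = 2), made up most of the sum. The median UMI count per cell was 3760 and 3810 in the controls and 2652 to 3680 at D1. The part of these in the results was not tested.

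Between injury time points, 4 genes differed between D3 and D1 in microglia (18.8% of all genes passed, 8.62% higher and 10.2% lower). No pool held libraries of both days, with all 3 D1 libraries in pool 3, and day and pool cannot be told apart. Maf was higher at D3 by 1.31 ± 0.38 (edgeR adjusted p = 0.0234), Mef2a by 1.08 ± 0.35 (0.0399) and Mitf by 0.93 ± 0.25 (0.0163), and Cebpb was lower by -0.99 ± 0.34 (0.0472). For Maf the D1 values of 37.6 to 50.5 CPM overlapped only with D3_mixed 1 at 39.2 CPM. From D3 to D10, 3 genes rose (6.88% of all genes passed, 2.96% higher and 3.92% lower), Runx1 by 1.37 ± 0.34 (edgeR adjusted p = 0.0275), Mitf by 0.91 ± 0.23 (0.0289) and Sall1 by 1.02 ± 0.30 (0.0493). Runx1 was at 16.5 to 59.7 CPM at D3 and at 78.6 to 103 CPM at D10, with no overlap. These calls rested on few libraries. Of the 4 D3 calls, only Cebpb passed without D1_mixed 1, only Mitf without D1_mixed 2 and none without D1_mixed 3. Maf was then at 1.19 to 1.36 (edgeR adjusted p of 0.0538 to 0.103), and without D3_mixed 3 at 1.15 (0.0508). Mef2a and Cebpb were each lost in 9 or more of the 17 omissions, at 0.87 to 1.14 (edgeR adjusted p of 0.0535 to 0.149) and -0.80 to -1.05 (0.0505 to 0.148). Leaving out any D10 library, D3_mixed 2 or D3_resident 2 lost all 3 D10 calls, and the lowest values were 1.22 for Runx1, 0.77 for Mitf and 0.74 for Sall1. Sall1 was lost in 12 of the omissions, and also with a sort term (1.03, edgeR adjusted p = 0.0577) or sums of at least 50 cells (1.01, 0.0586). Mef2a and Mef2c passed in turn without D3_mixed 3 (1.15 and 1.03) or D3_resident 1 (1.20 and 1.08), and with no filter on low counts (0.97 and 0.93). Mef2c also passed with RLE scaling (0.93, edgeR adjusted p = 0.0451), a sort term (0.99, 0.0348) and DESeq2 (0.93, 0.0198). In the mixed libraries alone none of the 7 calls passed, and with pool as a term none of the 3 D10 calls did: Sall1 and Runx1 turned to -0.19 and -0.02, and Mitf was at 0.38 (edgeR adjusted p = 1 for all 3). Cebpb at D3 was also lost with RLE scaling (-0.91), library totals (-0.85), DESeq2 (-0.91) or sums of at least 50 cells (-0.94), with an adjusted p of 0.0505 to 0.0769. Other measures differed between these days. The median UMI count per cell was 2652 to 3680 at D1, 1577 to 3421 at D3 and 2606 to 3050 at D10, and the median percent of mitochondrial UMIs 0.530 to 1.33, 0.475 to 1.95 and 0.0731 to 0.865. The summed microglia markers were at 4769 to 9088, 11044 to 14628 and 14365 to 16796 CPM, with no marker at 0. The part of these in the results was not tested.

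In macrophages, which the control libraries did not hold, time points were compared with D1 over 15 infiltrating and mixed libraries and 8577 genes. Sall1 did not pass the filter on low counts, and no member changed at D2 or D3, where 0% of all genes passed in edgeR (123 and 612 genes had an unadjusted p under 0.05). At D10, 3 of the 8 tested members changed (14.4% of all genes passed, 7.31% higher and 7.04% lower). Cebpb was lower, and Irf8 and Mef2c were higher. At D21, Irf8 was higher and 3.56% of all genes passed, 1.95% as higher. The D1 libraries of this fit lay in pools 3 and 6 and the D10 libraries in pools 2 and 7, which held no other library of the fit, so the D10 changes and pool cannot be told apart.

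Cebpb was at 2443, 3133, 2343 and 1815 CPM at D1 and at 545, 522, 540 and 615 CPM at D10, a change of -2.10 ± 0.55 (edgeR adjusted p = 0.0228). The groups did not overlap. The call was lost without any 1 of the 4 D10 libraries or D1_infiltrating 2 (-1.85 to -2.19, edgeR adjusted p of 0.0527 to 0.0920). The days between spread widely: 2983, 721 and 1074 CPM at D2, and 1896 CPM in D3_infiltrating 1 against 149 CPM in D3_mixed 3. In the mixed libraries alone the D3 change of Cebpb was -3.26 and passed (edgeR adjusted p = 0.00131), and so it did without D3_infiltrating 1 (-3.70, 0.0490). In both fits D3_mixed 3 is the only D3 library and is assumed to vary like the other groups. With all libraries it was -1.54 ± 0.71 (0.694). At D21 it was -2.09 ± 0.73 (0.111), and passed at about the same size without either D3 library (0.0363 and 0.0366).

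Irf8 was at 123, 180, 161 and 156 CPM at D1, at 247, 243, 342 and 238 CPM at D10 and at 400 and 263 CPM at D21. No D10 or D21 library overlapped with D1. The change was 0.83 ± 0.22 at D10 (edgeR adjusted p = 0.0234) and 1.33 ± 0.26 at D21 (0.0186). The D10 call was lost without any 1 of D10_infiltrating 1, D10_infiltrating 2, D10_mixed 1, D1_infiltrating 1, D1_mixed 1 or D1_mixed 3 (0.71 to 0.82, edgeR adjusted p of 0.0552 to 0.0997), with no filter (0.69, 0.126), with sums of at least 50 cells (0.74, 0.0699) or without cluster 2 (0.80, 0.0639), and the D21 call without either D21 library (1.29 both times, 0.0802 and 0.236), with pool as a term (1.30, 0.178) or in the mixed libraries alone (1.42, 0.4).

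Mef2c was at 34.1, 27.5, 89.0 and 136 CPM at D1 and at 235, 258, 164 and 106 CPM at D10, and the D10 libraries of the mixed sort (164 and 106 CPM) overlapped the D1 libraries of that sort (89.0 and 136 CPM). Its change was 1.62 ± 0.49 (edgeR adjusted p = 0.0424) and 0.37 in the mixed libraries alone (0.506). It was also lost without any 1 of 3 D10 libraries (all but D10_mixed 2), D1_infiltrating 1, D1_infiltrating 2, D1_mixed 1 or D21_infiltrating 1 (1.31 to 1.69, edgeR adjusted p of 0.0537 to 0.126). The same held with library totals (1.54, edgeR adjusted p = 0.0819), a sort term (1.63, 0.051), sums of at least 50 cells (1.69, 0.0642) and without cluster 2 (1.66, 0.0663). The summed border macrophage markers were at 274 to 5943 CPM at D1 and at 22.8 to 49.6 CPM at D10, and the median percent of mitochondrial UMIs per cell was 0.162 to 1.43 and 1.45 to 1.61. The summed microglia markers were at 311 to 1391 CPM in macrophages at D1, 1018 to 3775 at D10 and 2588 to 4764 at D21, and the summed macrophage markers at 9034 to 15823, 2386 to 7306 and 2931 to 5224 CPM. Those of monocytes were at 4441 to 7391, 757 to 5659 and 113 to 2704 CPM on the same days. The part of these in the results was not tested.

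Maf, Mef2a, Runx1, Spi1 and Mitf passed at no time point in macrophages with all libraries. Spi1 lay between 332 and 643 CPM in the 15 libraries. Mef2a was highest in D3_infiltrating 1 (456 CPM) and lowest in D21_mixed 1 (77.7 CPM). Maf separated the infiltrating from the mixed libraries at D10, with 250 and 243 against 68.3 and 78.8 CPM, and no test of that difference was run. In macrophages of D10_resident 1, outside the fit, it was at 213 CPM. In the mixed libraries alone Maf was lower than at D1, with a change of -1.62 at D3 (edgeR adjusted p = 0.0181) and of -1.74 at D10 (0.00327). The D3 value rests on 1 library, D3_mixed 3, which is assumed to vary like the other groups. With both sorts the D10 change was -0.37 ± 0.50 (edgeR adjusted p = 0.662).

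**Figure D3:**
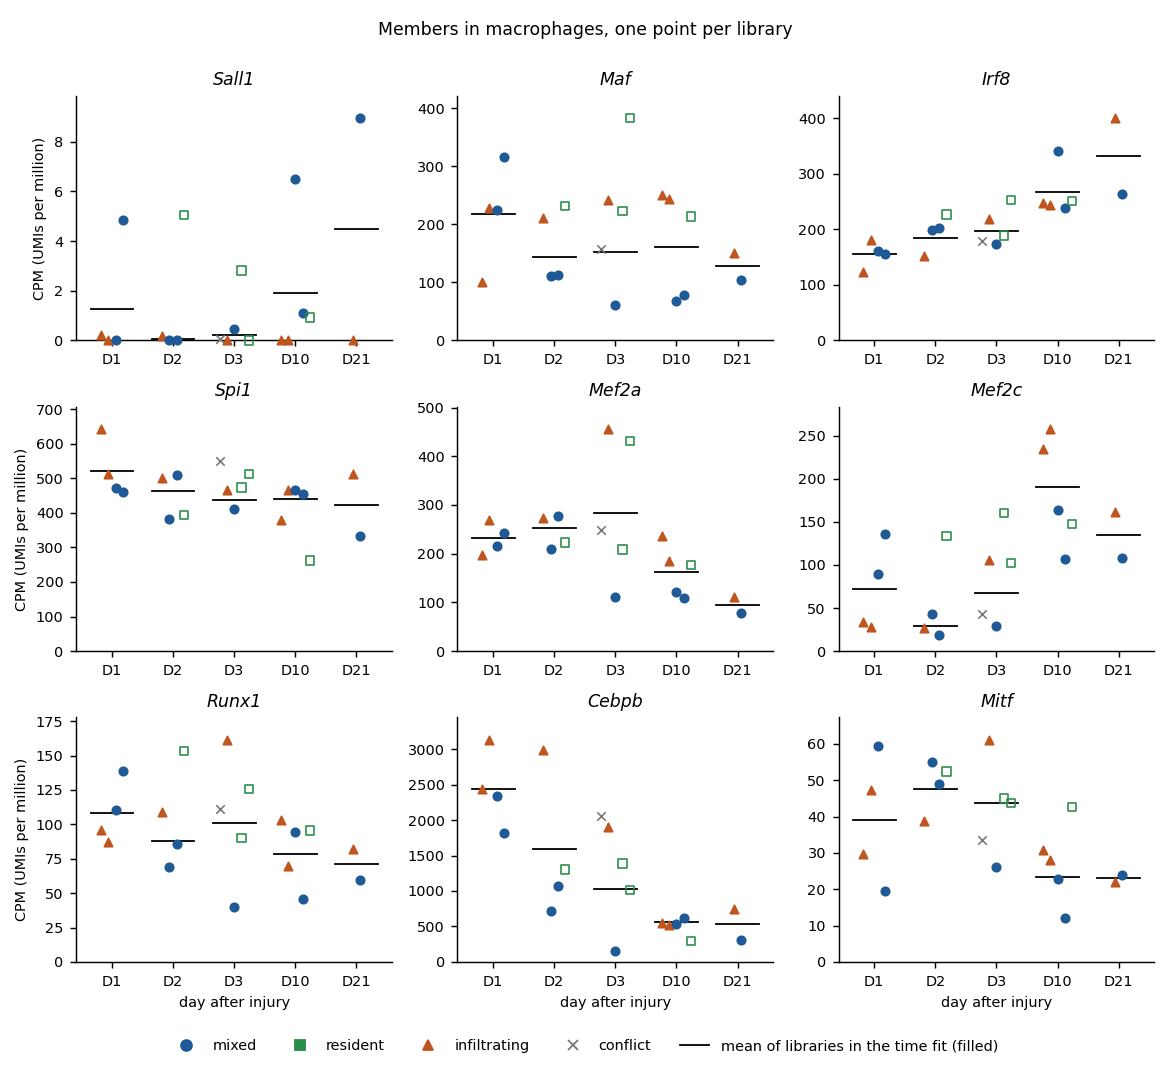
CPM of the 9 genes in macrophages (y axis, linear, each panel on its own scale) by day after injury (x axis), with 1 point per library, shaped by sort; black lines are means over the filled infiltrating and mixed libraries of the fit, and open squares and the cross (D3_conflict 1) are libraries outside it. Cebpb runs from 1815 to 3133 CPM in the filled D1 libraries and from 522 to 615 CPM in the filled D10 libraries, and Sall1 stays at or below 8.96 CPM.

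The 2 lineages were then compared within libraries that held at least 20 cells of each, 8 libraries at D1 to D3 and 4 at D10, so that sort, pool and sex were shared within a pair. At D1 to D3, Cebpb, Mitf and Runx1 were higher in macrophages and Mef2c and Sall1 lower, 5 of the 9 genes (37.5% of 10012 genes passed, 17.8% higher and 19.8% lower). At D10, Cebpb was higher and Mef2c and Sall1 lower (15.0% of genes passed, 8.21% higher and 6.76% lower). Sall1 entered through its level in microglia alone, so its call is not support of its own.

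Sall1 had 721 UMIs in microglia and 21 in macrophages over the 8 early libraries, and 656 and 6 over the D10 libraries. In macrophages its CPM was 1.99% of that of microglia at D1 to D3 (3.02% without D3_mixed 3) and 3.29% at D10 (1.31% without D10_mixed 1). Single early libraries ran from 0% in 4 of the 8 to 19.4% in D1_mixed 3, which rests on 2 UMIs, and to 11.4% in D2_resident 1, on 8. The microglia markers P2ry12, Tmem119, Siglech and Sparc stood at 3.40%, 6.07%, 1.76% and 1.78% in the same macrophages at D1 to D3, and at 6.52%, 21.6%, 3.35% and 2.29% at D10. The Sall1 share was within the range of these markers at both phases, and its low level in macrophages is not read as expression. Whether free RNA, doublets or misassigned cells account for it was not tested. Median UMIs per cell were 3062 in all microglia and 9144 in all macrophages. Over all libraries with at least 20 cells, Sall1 had 35 UMIs in 20 macrophage sums, 1 UMI in 10 dendritic-like sums and 0 in 5 neutrophil-like sums, where 3 counts would be 0.643 CPM.

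Mef2c was higher in microglia in all 8 early libraries. It was at 160.4 to 413 CPM there and at 18.5 to 160.5 CPM in macrophages of the same libraries, a change of -2.19 ± 0.34 (edgeR adjusted p = 3.91e-05). At D10 it was higher in microglia in 3 of the 4 libraries, with a change of -1.55 ± 0.48 (0.0317). The exception was D10_infiltrating 2, whose 36 cells of the microglia code had 166 CPM against 258 CPM in its macrophages. The D10 call was lost without any 1 of the other 3 libraries (-1.18 to -1.44, edgeR adjusted p of 0.0948 to 0.273).

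Cebpb was higher in macrophages in 7 of the 8 early libraries, and the exception was D3_mixed 3 (149 CPM in macrophages, 163 CPM in microglia). The widest pair was D1_mixed 1, with 2343 against 440 CPM. The change was 1.34 ± 0.22 at D1 to D3 (edgeR adjusted p = 7.8e-05) and 1.01 ± 0.32 at D10 (0.0367), where 3 of 4 libraries were higher. The D10 call was lost without D10_infiltrating 2, D10_mixed 1 or D10_mixed 2 (0.84 to 0.96, edgeR adjusted p of 0.121 to 0.226) and with library totals (1.04, 0.0505), sums of at least 50 cells (0.86, 0.0880), without cluster 2 (0.88, 0.0715) or in the mixed libraries alone (1.26, 0.0616). Runx1 was also higher in macrophages in 7 of the 8 early libraries, by 0.80 ± 0.22 (edgeR adjusted p = 0.00655), with the same exception (40.2 against 59.7 CPM). Its early call was lost with sums of at least 50 cells (0.70, edgeR adjusted p = 0.0921), without cluster 2 (0.68, 0.0529) and in the mixed libraries alone (0.71, 0.0865). At D10 its change was -0.28 ± 0.31 (0.634).

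The Mitf difference between the lineages changed with time. At D1 to D3 it was higher in macrophages in all 8 libraries, at 19.5 to 59.3 CPM against 8.82 to 25.1 CPM in microglia, a change of 1.18 ± 0.25 (edgeR adjusted p = 0.000795). At D10 it was higher in microglia in 3 of the 4 libraries, at 37.8 against 22.8 CPM in D10_mixed 1, 39.9 against 12.2 in D10_mixed 2 and 47.6 against 28.1 in D10_infiltrating 2, where the microglia value rests on 4 UMIs in 36 cells and 3 counts would be 35.7 CPM. D10_resident 1 had 40.4 CPM in microglia and 42.7 in macrophages. The D10 change alone, -0.75 ± 0.35, did not pass (0.183; -1.20 and 0.0438 without D10_resident 1), but the difference between the D10 and the early change did, at -1.92 ± 0.43 (edgeR adjusted p = 0.00604), the only one of the 9 genes (9.82% of all genes passed, 6.91% higher and 2.91% lower). Without D10_mixed 2 the difference was -1.56 and did not pass (edgeR adjusted p = 0.0669). Of the others, Mef2a was at -1.32 ± 0.46 (edgeR adjusted p = 0.0744) and Runx1 at -1.08 ± 0.38 (0.0789). Without D3_mixed 3 Mef2a (-1.54, edgeR adjusted p = 0.0239), Runx1 (-1.30, 0.0166) and Maf (-1.76, 0.0309) passed, Mef2a also without D10_infiltrating 2 (-1.65, 0.0283) and Runx1 without D10_resident 1 (-1.28, 0.0469). With no filter on low counts Maf (-1.47, edgeR adjusted p = 0.00123), Mef2a (-1.35, 0.00312) and Runx1 (-1.11, 0.0345) passed as well.

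**Figure D4:**
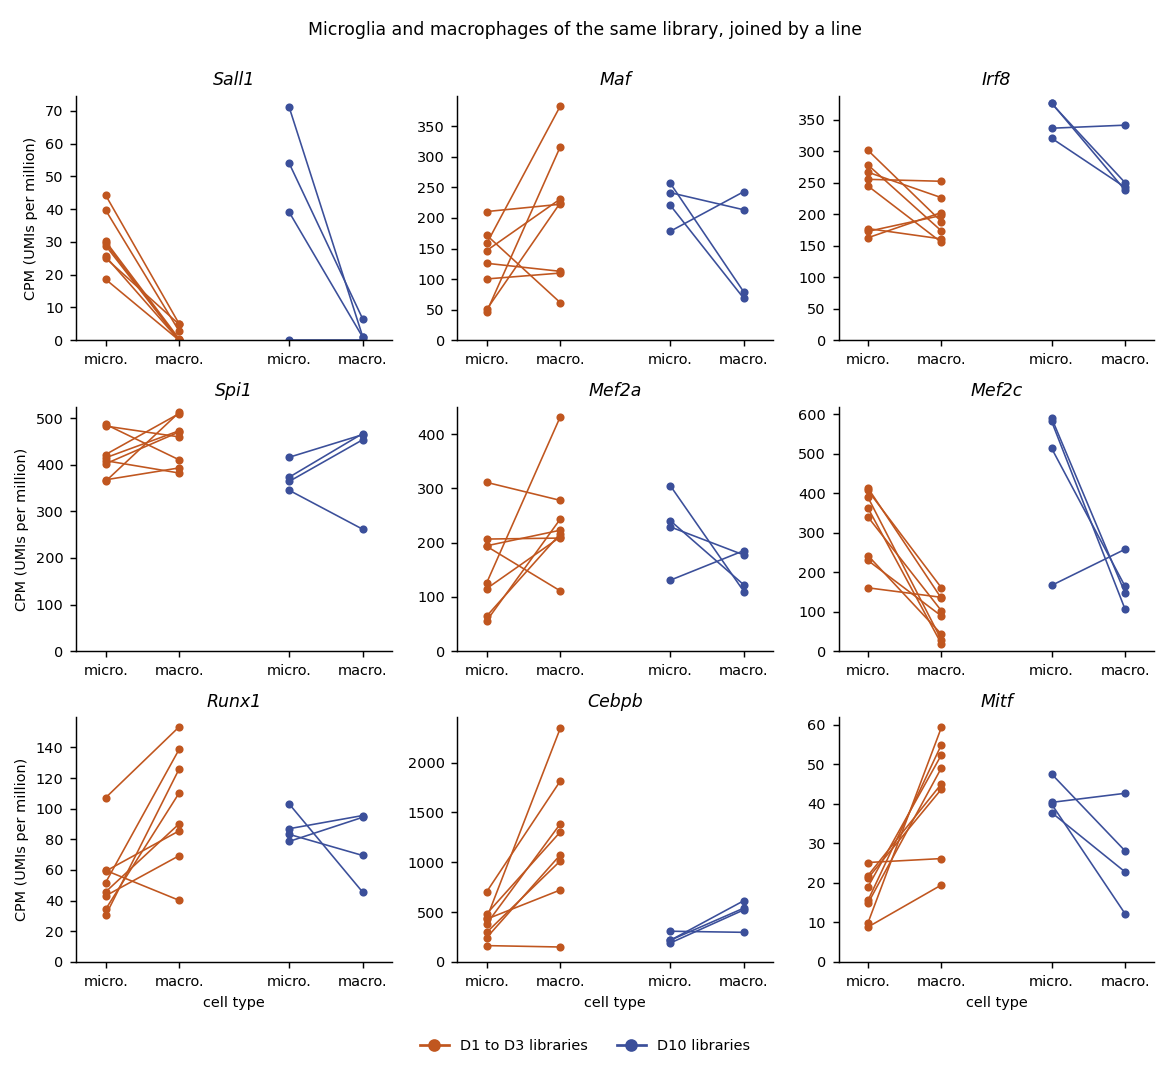
CPM of the 9 genes (y axis, linear, each panel on its own scale) in microglia (micro.) and macrophages (macro.) of the same library, joined by a line, for the 8 libraries of D1 to D3 (orange) and the 4 of D10 (blue). The Mitf lines rise in all 8 early libraries and fall in 3 of the 4 D10 libraries, and the Mef2c lines fall in all 8 early libraries.

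Maf, Mef2a, Irf8 and Spi1 passed at neither phase in the fit described. Spi1 was closest to equal, with changes of 0.01 ± 0.14 and 0.08 ± 0.20. Maf was higher in macrophages in 6 of 8 early libraries and in 1 of 4 at D10, with changes of 0.58 ± 0.33 and -0.86 ± 0.47. Without D3_mixed 3 the early changes of Maf (0.88, edgeR adjusted p = 0.0323) and Mef2a (0.82, 0.0178) passed, as did Mef2a without D3_resident 1 (0.74, 0.0499) and Irf8 without D2_mixed 2 (-0.46, 0.0367). With no filter on low counts, the early changes of Maf (0.58, edgeR adjusted p = 0.0238) and Mef2a (0.62, 0.0111) and the D10 change of Maf (-0.89, 0.0240) passed. In the mixed libraries alone the D10 changes of Maf (-1.84, edgeR adjusted p = 0.0451) and Mef2a (-1.37, 0.0448) did.

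Dendritic-like cells had 6 of the 8 tested genes apart from the macrophages of their own 9 libraries (40.5% of 10353 genes passed, 19.5% higher and 21.0% lower). Maf was lower in all 9 libraries, at a median of 13.98 CPM (range 0 to 51.8) against 210.3 CPM (61.6 to 250), a change of -3.70 ± 0.33 (edgeR adjusted p = 6.54e-07). Mitf was also lower in all 9, at a median of 13.98 against 30.7 CPM and a change of -1.33 ± 0.12 (7.9e-07). Cebpb was lower in 8 of 9 libraries (-1.83 ± 0.39, edgeR adjusted p = 0.00146) and Irf8 in 7 of 9 (-0.55 ± 0.15, 0.0101). Mef2c was higher in 7 of 9, at a median of 121 against 34.1 CPM (1.06 ± 0.26, edgeR adjusted p = 0.00465), and Spi1 in 8 of 9, at 612 against 500 CPM (0.33 ± 0.09, 0.00672). The Spi1 call was lost with sums of at least 50 cells (0.28, edgeR adjusted p = 0.0536). Runx1 and Mef2a did not pass with all libraries, but Mef2a did without D3_mixed 3 (-0.43, edgeR adjusted p = 0.0155) or D21_infiltrating 1 (-0.39, 0.0458).

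Neutrophil-like cells were compared with the macrophages of 4 libraries from D1 and D2, and 5 of the 8 tested genes differed (48.1% of 9679 genes passed, 20.7% higher and 27.4% lower). Irf8, whose loss is known to turn myeloid precursors towards granulocytes, was at 0 to 21.8 CPM against 123 to 203 CPM, a change of -3.89 ± 0.47 (edgeR adjusted p = 3.53e-06). Maf was at 0 to 25.3 against 101 to 229 CPM (-3.81 ± 0.39, 6.69e-07) and Mef2c at 0 to 5.83 against 18.5 to 34.1 CPM (-2.89 ± 0.47, edgeR adjusted p = 9.53e-05). None of these 3 ranges overlapped between the cell types. Mef2c had only 10 UMIs over the 4 neutrophil-like sums, so its call rests on its level in macrophages and is not support of its own. In D2_mixed 2, with 51 neutrophil-like cells and 96190 UMIs, 3 counts would lie above the 18.5 CPM of its macrophages. Mitf was lower in all 4 libraries (-0.97 ± 0.31, edgeR adjusted p = 0.0164), a call lost without D1_infiltrating 1 (-0.93, 0.0555) or D1_infiltrating 2 (-0.94, 0.12). Runx1 was higher in all 4 libraries, at 140 to 333 against 85.5 to 109 CPM, a change of 1.08 ± 0.31 (0.00843) that was lost without D1_infiltrating 2 (0.79, 0.102). Cebpb and Spi1 had higher CPM in all 4 libraries, with Cebpb at a median of 3464 against 2713 CPM, but neither passed (edgeR adjusted p = 0.246 and 0.105). With library totals Spi1 passed, at 0.75 (edgeR adjusted p = 0.0486).

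By deposited cluster, the genes fell on different groups of cells. The 16 clusters were made from these cells and genes, so their levels, summed without D3_conflict 1, are described without a test. Cluster 1 is the 1887 control microglia and no other cells, so its levels are those of the controls and no separate result. It had the highest summed level of Sall1 (203 CPM), Maf (637), Irf8 (584), Mef2a (755) and Mef2c (1011). Cluster 4, with 1377 microglia and at least 20 cells in each of 6 libraries, came next for Sall1 (80.8 CPM), Maf (324), Irf8 (468) and Mef2c (730). These ranks depend on which libraries fill a cluster. Maf was higher in cluster 9 than in cluster 4 within D2_resident 1 (450 against 295 CPM). It was lower in cluster 9 within D3_mixed 3 (63.6 against 344 CPM) and D10_resident 1 (224 against 348 CPM). Runx1 (526 CPM) and Mitf (99.2) were highest in the macrophage cluster 14, a small cluster of 118 cells with a median of 1488 UMIs. Cebpb was highest in cluster 16, the neutrophil-like cells (3955 CPM), and cluster 12 of the macrophages (3714), and Spi1 in cluster 16 (980) and macrophage cluster 13 (968). Within the macrophages Cebpb ran from 206 CPM in cluster 9 to 3714 in cluster 12. D3_mixed 3 gave 2676 of the 3464 cells summed for cluster 9, at 139 CPM. Libraries with at least 20 cells of cluster 9 ran from 88.8 CPM in D3_infiltrating 1 to 1021 CPM in D1_infiltrating 1.

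**Figure D5:**
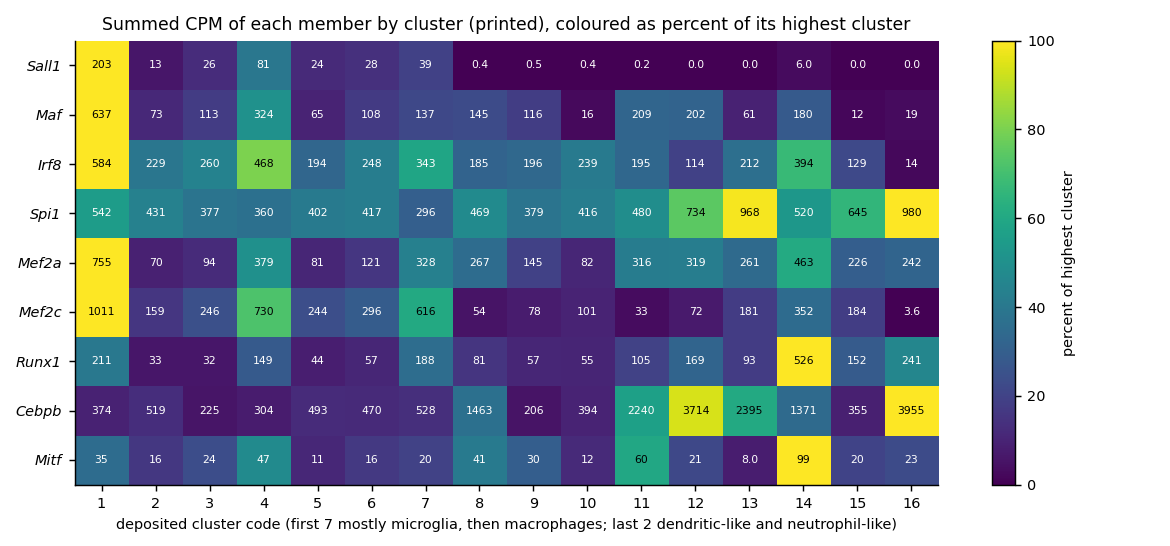
Summed CPM of each gene (rows) in the 16 deposited clusters (columns), printed in each cell and coloured as percent of the gene's highest cluster. Sall1, Maf, Irf8, Mef2a and Mef2c peak in cluster 1, which is the control microglia, and are also high in cluster 4. Cebpb peaks in clusters 12 and 16, and Runx1 and Mitf in cluster 14.

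Cluster 3, in which 3312 of 3660 cells had the microglia code, and cluster 4 occurred together, each with at least 20 cells, in 6 libraries from D2 to D21. In all 6, cluster 4 had the higher level of Sall1, Maf, Irf8, Mef2a, Mef2c, Runx1 and Mitf. The ratio of cluster 4 to cluster 3 ran from 2.12 to 4.38 for Sall1, from 1.67 to 3.56 for Mef2c and from 1.32 to 6.50 for Runx1. For Spi1 it ran from 0.874 to 1.16, with 5 of 6 libraries below 1, and for Cebpb from 0.937 to 1.79. In D21_mixed 1, for example, Sall1 was at 94.0 CPM in cluster 4 and at 21.5 CPM in cluster 3, and Spi1 at 395 and 341 CPM. The median UMI count per cell was 5827 in cluster 4 and 2272 in cluster 3.

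The genes most alike in level over 51 sums of library and cell type were ranked by Pearson's r of log2(CPM + 5) among 11506 genes, as a description, since these sums share libraries and cell types. Sall1 was most like Lrrc3 (r = 0.95) and Tmem100 (0.94), Mef2c most like Ly86 (0.91) and Fgd2 (0.91), and Irf8 most like Snx5 (0.90) and Ctss (0.90). Maf was most like Slc7a8 (0.86), Runx1 most like Pcf11 (0.91) and Kdm2a (0.90), and Mef2a most like Rnf111 (0.88) and Ddx17 (0.86). Cebpb was most like Gsr (0.85) and Il1rn (0.84), Spi1 most like Rflnb (0.85) and Cdk2ap2 (0.85), and Mitf most like Lhfpl2 (0.81) and Cd84 (0.75). Within the set the closest pairs were Irf8 with Mef2c (r = 0.80) and Mef2a with Runx1 (0.76).

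Relatives of the 9 factors and other myeloid factors changed in both directions in microglia at D1. Over all genes 23.9% were higher and 22.7% lower in that comparison, and the lists are counted beside these shares. Of 33 family partners, 27 were tested, of which 4 were higher and 10 lower, with a median log2 change of -0.79. Maff, a small MAF protein without an activation domain, was at 1.17 ± 0.64 CPM (SD, n = 2) in the controls and 8.29 ± 2.28 CPM (SD, n = 3) at D1 (3.66 ± 0.59 SE, edgeR adjusted p = 0.000122). Of 25 other myeloid lineage factors, 22 were tested, of which 4 were higher and 8 lower. Bhlhe40 was among those that rose (3.27 ± 0.46, edgeR adjusted p = 4.23e-05), and Smad7, a brake on TGF-beta signalling, among those that fell (-3.21 ± 0.63, 0.000665).

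Of 10 genes known as targets of PU.1, 1 was higher and 3 were lower at D1. The scavenger receptor gene Msr1 was at 3.68 ± 1.66 CPM (SD, n = 2) in the controls and 736 ± 181 (SD, n = 3) at D1, a change of 8.53 ± 0.52 (SE, edgeR adjusted p = 2.43e-08). Il7r fell from 112 ± 32.9 to 3.48 ± 1.31 CPM (-4.63 ± 0.60, edgeR adjusted p = 2.35e-05), and Csf3r from 201 ± 14.3 to 15.6 ± 7.32 CPM (-3.05 ± 0.45, 6.5e-05). Of 6 targets of C/EBP beta, 2 were higher and 1 lower, with Cebpd, itself a partner of C/EBP beta, down from 314 ± 0.428 to 101 ± 24.0 CPM (-0.94 ± 0.28, edgeR adjusted p = 0.0113; 0.0531 to 0.0836 without either control or D1_mixed 1). Of 6 tested targets of MITF and its relatives 3 were higher and 0 lower, all 3 from few counts. Gpnmb was at 0 in both controls and at 2.31 ± 1.83 CPM (SD, n = 3) at D1, Acp5 at 0.270 ± 0.381 (SD, n = 2) and 7.09 ± 5.19 CPM, and Atp6v0d2 at 0 in both controls and at 0.572 ± 0.355 CPM. Without cluster 2 neither Gpnmb (4.36, edgeR adjusted p = 0.135) nor Atp6v0d2 (2.17, 0.228) passed. The Gpnmb call was also lost without D1_mixed 3 (4.74, edgeR adjusted p = 0.0675) or Ctrl_resident 1 (5.50). Without Ctrl_mixed 1 none of the 3 passed (edgeR adjusted p = 0.133, 0.0668 and 0.17), and Atp6v0d2 was also lost with DESeq2 (0.0716), library totals (edgeR, 0.0617) and no filter (0.0572).

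Between macrophages and microglia at D1 to D3, where 17.8% of all genes were higher and 19.8% lower, 15 of 27 tested family partners were higher in macrophages and 3 lower, and of 23 other myeloid factors 13 were higher and 3 lower. Runx3 was higher by 4.54 ± 0.47 (edgeR adjusted p = 3.04e-07), Nr1h3, the lipid-sensing receptor LXR alpha, by 4.76 ± 0.41 (2.38e-08), and Sall3 was lower by -3.48 ± 0.47 (edgeR adjusted p = 9.53e-06). Of 7 tested MITF-family targets 6 were higher in macrophages and 0 lower, among them Gpnmb (6.13 ± 0.54, edgeR adjusted p = 3.93e-08) and Ctsk (6.12 ± 0.51, 4.56e-08). Gpnmb is itself one of the markers that named the macrophages, so its call is not support of its own. Of 5 tested targets of C/EBP beta 3 were higher and 1 lower, with Il1b, which encodes the cytokine interleukin-1 beta, at 2.86 ± 0.67 (edgeR adjusted p = 0.00209), a call lost with sums of at least 50 cells (1.94, 0.12). Of targets of PU.1, 2 of 10 were higher and 4 lower, among them Csf1r, the receptor gene for the macrophage growth factor CSF1, at -2.19 ± 0.27 (edgeR adjusted p = 2.32e-06).

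In macrophages at D10 against D1, where 7.31% of all genes were higher and 7.04% lower, 1 of 26 family partners was higher and 4 were lower, with Ets2 at -3.70 ± 0.71 (edgeR adjusted p = 0.00597). Of 23 other myeloid factors 2 were higher and 5 lower, among them Hif1a (-2.22 ± 0.42, edgeR adjusted p = 0.00561). Of 10 targets of PU.1 2 were higher and 4 lower, with Msr1 at -3.56 ± 0.45 (edgeR adjusted p = 0.000543), and of 7 of the MITF family 0 were higher and 1 was lower, the protease gene Ctsk (-4.39 ± 0.93, 0.00929).

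Against macrophages, dendritic-like cells had 19.5% of all genes higher and 21.0% lower. They had 6 of 7 targets of the MITF family lower and 0 higher, with Gpnmb, a marker that named the macrophages, at -5.45 ± 0.29 (edgeR adjusted p = 1.35e-08). Irf4, a relative of Irf8 known from dendritic cells, was higher by 3.52 ± 0.34 (edgeR adjusted p = 1.39e-06), and 10 of 30 family partners were higher and 11 lower. Of the other lists, 10 of 23 myeloid factors were higher and 11 lower, 0 of 10 PU.1 targets higher and 5 lower, and 2 of 6 C/EBP beta targets higher and 4 lower. In neutrophil-like cells, with 20.7% of all genes higher and 27.4% lower, 4 of 6 targets of C/EBP beta were higher and 2 lower, and 2 of 10 of PU.1 were higher and 5 lower. The granulocyte receptor gene Csf3r, itself one of the neutrophil markers that named the cells, was at 5.89 ± 0.40 (edgeR adjusted p = 6.01e-09), and Cebpa, a partner of C/EBP beta, at -3.44 ± 0.34 (5.29e-07). Family partners were split 10 higher and 6 lower of 28, other myeloid factors 7 and 7 of 23, and targets of the MITF family 1 and 3 of 7.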

How the data were processed

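Libraries were grouped by time point and sort from the labels. Per the labels' protocols, a 5 mm lesion segment was homogenised, myelin was removed on a Percoll gradient and cells were sorted before 10x Genomics 3' capture. The submitters' processing notes name Cell Ranger 3.1.0, GRCm38 and mm10; the annotation and cell filters are not given in the sources used here. For each library the authors deposited a matrix of raw UMI counts (22439 genes by cells). A table of total counts, percent of mitochondrial UMIs and numeric codes per cell was also deposited. The deposited count sums matched for all 30958 cells. All cells were kept, without a doublet caller or a correction for free RNA. The lowest UMI count of a cell was 713 and the highest mitochondrial percent 22.65.

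Counts were summed per library and cell type code, and sums of at least 20 cells were used. Microglia were fitted over 17 mixed and resident libraries (23 to 1500 cells, 135097 to 7794902 UMIs) and macrophages over 15 mixed and infiltrating libraries (28 to 3019 cells, 235999 to 22068469 UMIs), with time point and sex as terms. Cell types were compared within libraries with the library as a block. edgeR 4.0.16 in R 4.3.3 was used (TMM scaling, filterByExpr, quasi-likelihood test, 2-sided), with Benjamini-Hochberg adjustment over all genes and a threshold of 0.05. Standard errors are the log2 change over the square root of F. The scripts were tested on simulated data. Alternatives were RLE scaling, DESeq2 1.42.0, library totals, no filter, at least 50 cells, without cluster 2, a pool or sort term, mixed libraries alone, D3_conflict 1 added, a replicate block and leaving out each library.

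Cell type markers counted when at 20 CPM or more and at least 2 times as high as in other cells, with 5 CPM added to both. The members and all gene lists were chosen with earlier results of these data known. Text names the 9 members and, from each list in a comparison, up to 3 genes with the largest change that passed. Some genes and 1 list are not reported here. D2_infiltrating 1 is labelled female but carries the sex code of male libraries in the deposited table; the label was used. Coordinates are from GENCODE M21 on GRCm38, and start-site windows from RefSeq on GRCm38.p6.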

Additional observations from a re-analysis of the deposited data

Results flagged for a closer look

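In 4 of 27 groups of 4 to 10 libraries, 1 library stood far from the others by Dixon's test, which chance alone does in about 1 of 20 groups. Irf8 in macrophages at D10 was at 342 CPM in D10_mixed 1 and at 238 to 247 CPM in the other 3. Spi1 in macrophages at D10 was at 378 CPM in D10_infiltrating 1 and at 454 to 467 CPM in the others. Sall1 in macrophages was at 4.87 CPM in D1_mixed 3 (0 to 0.198 in the others) and at 6.51 CPM in D10_mixed 1 (0 to 1.11 in the others), which rest on 2 and 4 UMIs.

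The change of Mitf between macrophages and microglia differed between D10 and D1 to D3 by -1.92 (edgeR adjusted p = 0.00604), with macrophages higher in 8 of 8 early and 1 of 4 D10 libraries.

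D3_conflict 1, outside every main comparison, held 2367 macrophages in which 8 of the 9 genes were above the limit of 3 counts. Cebpb was at 2056 CPM, Spi1 at 549, Mef2a at 249, Irf8 at 178, Maf at 158, Runx1 at 111, Mef2c at 42.5 and Mitf at 33.6 CPM, while Sall1 had 1 UMI. With this library added, the 0 member calls at D2 and D3 against D1 in macrophages stayed at 0.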

How the results depend on the processing

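Over 3170 alternative fits of the 138 tested changes of the 9 genes, 2924 kept their side of the threshold, 171 lost it, 73 gained it and 2 that had passed changed sign. In 101 of the 2924 the sign changed for values that passed neither way. Both changes of a called sign were from D3 to D10 in microglia with pool as a term, Sall1 at -0.19 and Runx1 at -0.02 (edgeR adjusted p = 1 for both). Library totals in place of TMM, the mixed and resident libraries alone, the unblocked fit of the mixed libraries and the omissions for the Sall1 share were added after seeing the data.

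Leaving out 1 library gave 6 to 8 member calls for microglia at D1 against Ctrl (7 with all), 1 to 6 at D2 (6), 4 to 5 at D3 (5), 0 to 1 at D10 (1) and 0 to 1 at D21 (0), 0 to 4 for D3 against D1 (4) and 0 to 5 for D10 against D3 (3). In macrophages it gave 0 to 0 at D2 (0), 0 to 1 at D3 (0), 0 to 3 at D10 (3) and 0 to 2 at D21 (1). Between macrophages and microglia it gave 5 to 7 early (5), 1 to 3 at D10 (3) and 0 to 4 for the difference (1), and it gave 6 to 7 for dendritic-like (6) and 3 to 5 for neutrophil-like cells (5).

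The mixed libraries alone gave 2 calls in microglia at D1 (Mef2a lower and Cebpb higher, against 1 control), 1 at D3, 0 at D10, 0 for D3 against D1 and 0 for D10 against D3, moving the median of all genes by up to 0.83; in macrophages they gave 1 at D2, 3 at D3 and 0 at D21, and 3 for the difference between phases. A pool term gave 0 calls at D3 and 5 at D10 in microglia against Ctrl, 0 for D10 against D3, and 0 for macrophages at D21; at D1 it could not be fitted apart from time. Library totals gave 5 calls at D10 and 4 at D21 in microglia, and 1 between the lineages at D10. No filter gave 1 call at D21, 5 for D10 against D3 and 4 for the difference between phases. DESeq2 gave 1 call in microglia and 2 in macrophages at D21. The sort term gave 2 calls for D3 against D1. Sums of at least 50 cells and the fit without cluster 2 each gave 1 call for macrophages at D10, and the mixed and resident libraries alone 2 for the difference between phases. The cause was not tested.

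Replicate numbers did not pair the mixed libraries (same-number correlations from -0.20 to 0.12). The replicate block gave 0 calls for microglia D3 against D1 and 4 for D10 against D3, and the same libraries unblocked gave 0 and 0. D3_conflict 1 held too few microglia to enter that fit. Depth limits the small sums: 3 counts are 22.2 CPM in the 23 microglia of D2_mixed 2.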

Other observations

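Infiltrating libraries at D10 and D21 held small groups of cells with the microglia code, outside the microglia fit. In D10_infiltrating 2, 36 such cells had 0 Sall1 UMIs, where 3 counts would be 35.7 CPM, with Mef2c at 166, Maf at 178 and Mitf at 47.6 CPM (4 UMIs). In D21_infiltrating 1, 41 such cells had 1 Sall1 UMI (7.79 CPM), with Mef2c at 156, Irf8 at 187 and Mitf at 39.0 CPM (5 UMIs). In both libraries Mef2c was below its level in the microglia of the mixed library or libraries of the same day, a difference that was not tested.

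Macrophages of resident libraries, also outside the macrophage fit, varied by day for Cebpb, which was at 1303 CPM at D2, 1385 and 1013 CPM at D3 and 297 CPM at D10. Spi1 was at 262 CPM in D10_resident 1, the lowest of all 20 macrophage sums.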
